A study of Oreochromis niloticus with 3 samples.

Results

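The hepatopancreas of freshwater Nile tilapia was described from 1 RNA-Seq library, that of fish kept at 0 psu (practical salinity units), out of 3 libraries in the series. All 29605 genes of the deposited table were ranked by their counts in this library, and no gene was left out for its level. Of these, 20828 genes had at least 1 count. The values therefore answer which genes, gene classes and gene groups make up the counted poly(A) RNA reads of this organ in fresh water. Reads that were counted to no gene are not part of them.

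The series was made to examine the response of Oreochromis niloticus to salinity, and only its freshwater library is used here. The fish were healthy juveniles held at 0 psu throughout, with no strain or genetic change given, and fasted before sampling. Equal amounts of hepatopancreas RNA from 8 fish were pooled, so that differences between fish cannot be seen and no value has a replicate check. The study's methods and the deposited labels differ in stocking, initial weight, diet and length of rearing.

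In many teleosts the liver and the exocrine pancreas lie together as 1 organ, the hepatopancreas. Its hepatocytes secrete most plasma proteins and carry out much of the metabolism of sugars, lipids and amino acids. Its acinar cells make the digestive enzymes that reach the gut as inactive precursors, and the hormone cells of the islets form a separate tissue. A pooled RNA library holds the transcripts of all these cells at once, and fewer cells of a type cannot be told apart from less RNA per cell.

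The library held 14627514 counts of reads. A single count was worth 0.0684 CPM, where CPM is the count scaled to a fixed library total. By a one-sided 95% limit, a gene listed at 0 could still hold up to 3 counts, which is 0.205 CPM. Shares of counts are given as percent of this total with exact Clopper-Pearson 95% intervals, which cover counting error only. A long transcript gives more reads per molecule than a short one, and lengths were not used here. The shares and ranks are therefore of reads, and the order of 2 genes is not an order of molecules. The median gene with a count had 42 counts, and 7021 genes had at least 100.

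The counts were concentrated in few genes. The first 10 genes took 22.8% of the total (22.77 to 22.81), the first 100 took 52.7% and the first 1000 took 84.4%. A set of 85 genes held 50% of the counts, 407 genes held 75% and 2047 genes held 90%. At the upper end, 16 genes with at least 100000 counts each took 27.7% of the total. At the lower end, 5963 genes with 1 to 9 counts took 0.146% of the total, and 8777 genes were at 0.

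**Figure D1:**
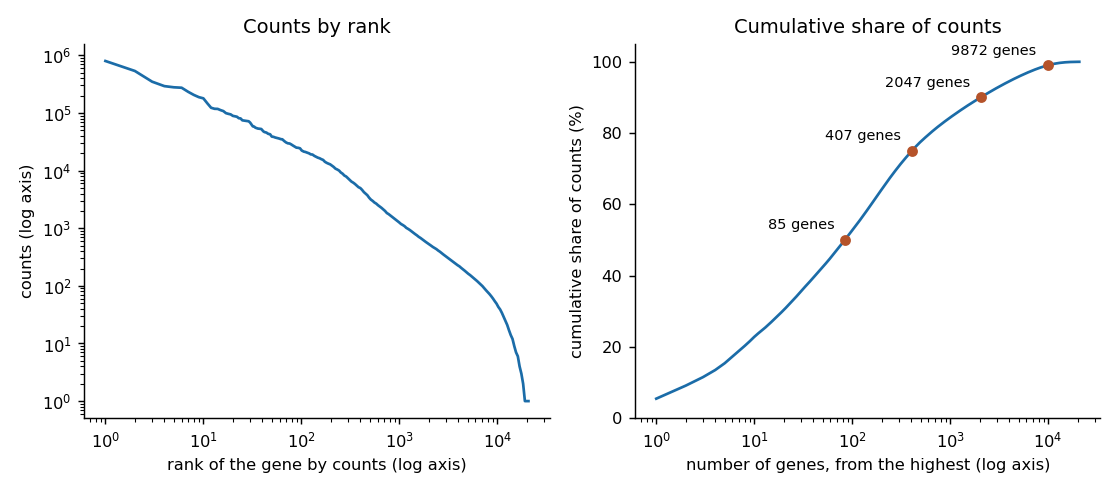
Left, counts of each gene against its rank in the freshwater library, both on log axes. Right, the cumulative share of counts in percent against the number of genes taken from the highest down, on a log axis, with points where 50, 75, 90 and 99% are reached. The curve reaches 50% with 85 genes and needs 9872 genes for 99%.

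Most of the genes at the head of the ranking that carry a symbol encode proteins that the liver secretes or uses for lipid. Of the 30 genes with the most counts, 19 had a symbol and all 19 fell into one of 20 gene lists. Among all 15687 genes with a symbol, 1041 were in a list. The lists were chosen with earlier results of these data known, so this overlap is no independent result. The second gene in the ranking, after a locus without a symbol, was hpxa, for the haem scavenger hemopexin, with 535402 counts or 3.66% of the total. It was followed by apoc1, an apolipoprotein of plasma lipoproteins, with 348966 counts (2.39%), and by apo14kda, the symbol of a fish apolipoprotein, with 292272 counts (2.00%). The next symbols were scd, the stearoyl-CoA desaturase that makes monounsaturated fatty acids, with 232694 counts, fth1a, a ferritin chain that stores iron, with 188007 counts, and fabp10a, the liver basic fatty acid-binding protein, with 179465 counts. These 6 genes each held over 1.2% of the counts. The first mitochondrial gene, COX1, stood at rank 12 with 123089 counts. It was followed by ef-1a, the translation elongation factor, with 117647 counts at rank 14.

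The other 11 of the first 30 had a locus number only. The gene with the most counts in the library, LOC100708634, was one of them, with 798016 counts or 5.46% of the total (5.44 to 5.47). This was 1.49 times the count of hpxa. Its neighbours in the RefSeq gene order include cep164, sidt2, sik3 and bace1, which had 21, 1540, 685 and 22 counts. The high count was thus not shared by these genes. Another neighbour, LOC112842072, has no count in the deposited values. LOC100708655, at rank 5 with 278896 counts, lies near fetub, a fetuin, which had 2936 counts, and LOC100712306, which had 19907. LOC100691316 had 274112 counts, LOC100706723 had 205479 and LOC100708539 had 146422. The remaining 6 were LOC100692186, LOC100704059, LOC100697495, LOC100708221, LOC100691584 and LOC102080222, between 118206 and 68188 counts.

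**Figure D2:**
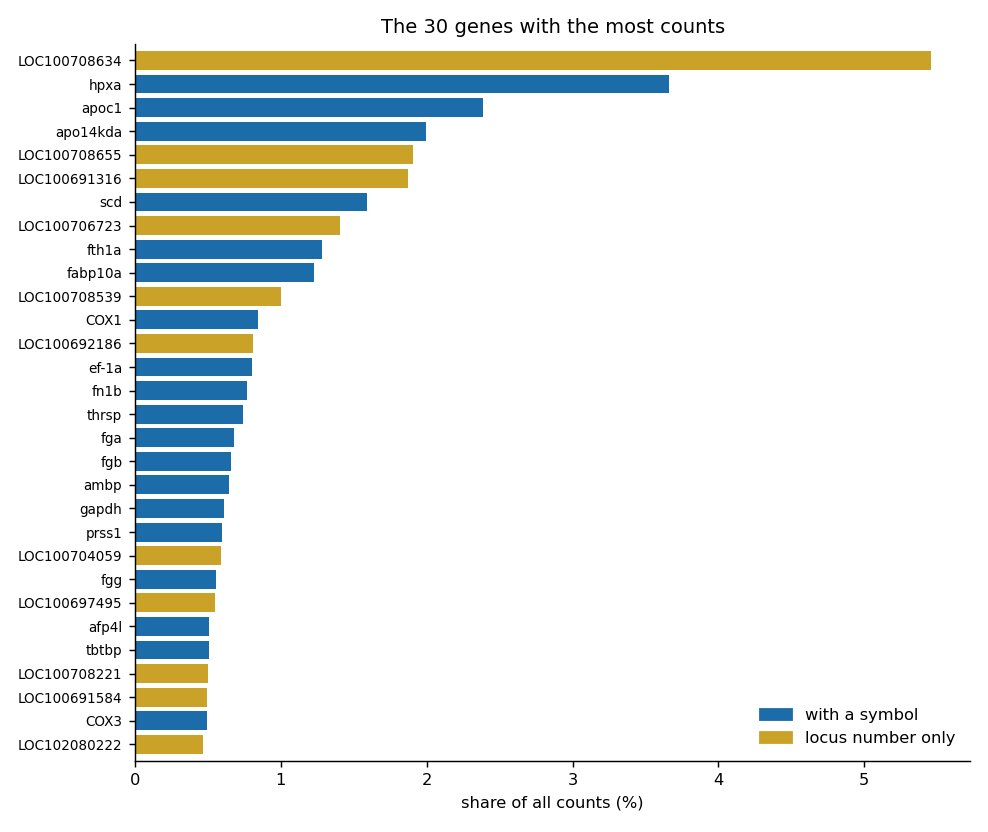
Share of all counts in percent for the 30 genes with the most counts, highest at the top, with blue bars for genes that have a symbol and yellow bars for genes with a locus number only. The 11 yellow bars include the first, LOC100708634, at 5.46%.

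Genes without a symbol weigh on every share below. The 13918 such genes, of which 7714 had a count, held 34.9% of all counts, and the 15687 genes with a symbol held 65.1%. The 20 lists were filled by symbol and together covered 1041 genes and 45.4% of the counts. The share given for a list therefore leaves out members without a symbol. It was not checked whether all its reads belong to the named function or cell type.

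Plasma proteins made by the liver formed the leading group. The 69 genes listed, all with counts, held 17.6% of the total (17.57 to 17.61), and 23 of them were among the 100 genes with the most counts. The largest of the 4 lists in the group was that of transport and other plasma proteins, with 23 genes and 7.63%. Within it hpxa alone held 48.0% of the list. Behind it came fn1b, a fibronectin of plasma and matrix, with 111967 counts, ambp, the precursor of alpha-1-microglobulin and bikunin, with 94502, and tbtbp, a tributyltin-binding protein of fish plasma, with 73779. The selenium carrier selenop had 37751 counts and leg1.1 had 36700. All 23 genes had at least 248 counts. No locus matched the symbols tf, ttr, serpina1 or ahsg, so their levels are not known here.

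The apolipoproteins, which solubilise lipid in plasma, held 5.82% in 11 genes. This list too was uneven, since apoc1, apo14kda and afp4l took 84.1% of it. The symbol afp4l, from type IV antifreeze proteins, which resemble apolipoproteins, had 74541 counts. The remaining named members were apoeb with 53340 counts, apoc2, which activates lipoprotein lipase, with 38515, and apobb.1, a large structural apolipoprotein of very low density lipoprotein, with 21359. In the RefSeq gene order apoeb, apoc1 and apoc2 lie in 1 cluster, and all 3 were within the first 52 genes. The other gene of apolipoprotein B, apoba, had 4013 counts. No locus carried the symbol apoa1, so its level is not known here. The order and the shares within this list hold only among the genes matched by symbol.

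The coagulation list held 3.25% in 22 genes. The 3 fibrinogen chains had similar counts, with 99328 for fga, 96559 for fgb and 81104 for fgg, and took 58.2% of the list. The counts of the chains, which join to form the clot protein, lay within 1.22 times of each other. They were followed by kng1, the precursor of kinin, with 66159 counts, and by the thrombin inhibitors serpind1 with 32506 and serpinc1 with 22720. The zymogens were lower in counts, with 8842 for f9b, 7244 for f2, the prothrombin gene, and 4832 for plg, the plasminogen gene. Of the loci with a factor VII symbol, f7i had 11841 counts, f7l had 2718 and f7 had 1121. Whether f7i encodes an active zymogen was not examined.

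The complement list was the smallest of the 4, with 0.891% in 13 genes. Its first gene was serping1, an inhibitor of the classical pathway, with 46679 counts. Among the terminal components that form the membrane attack complex, c5 had 22592 counts, c9 had 19197, c8a had 8863 and c8b had 8839. Lower were c8g with 5576, c7b with 3045 and c7a with 11, and c6 is not among the genes of the list. The regulator cfi had 12152 counts. No locus carried the symbol c3, so its level is not known here.

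**Figure D3:**
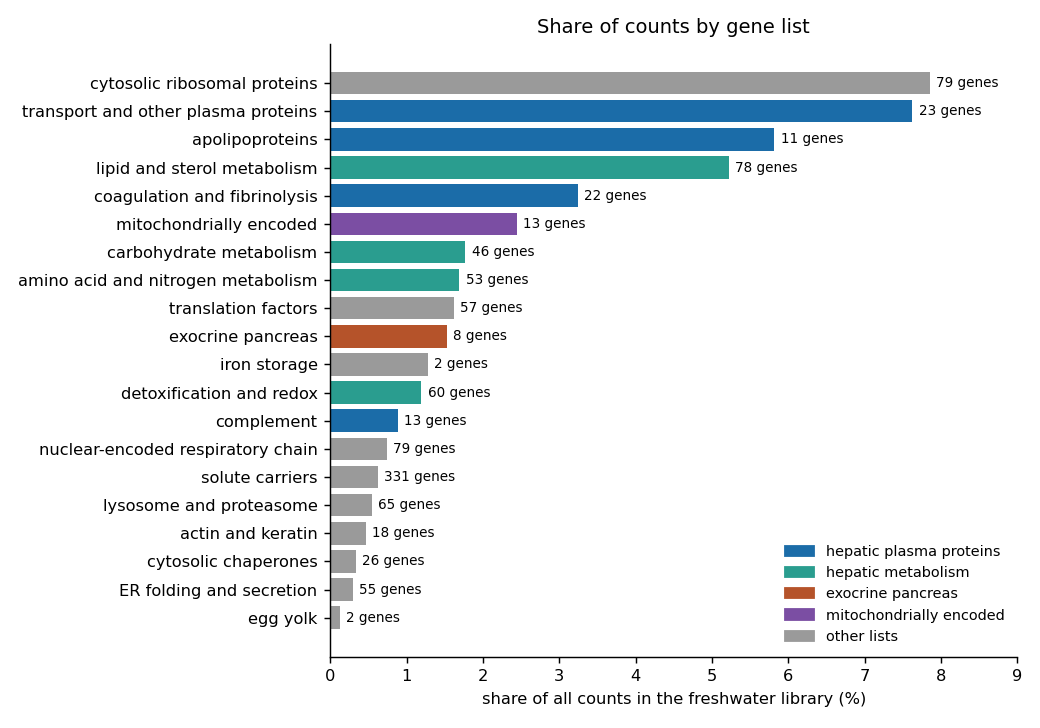
Share of all counts in percent for each of the 20 gene lists, with the number of genes in the list beside its bar and colours for the groups named in the legend. Cytosolic ribosomal proteins (7.86%) and transport and other plasma proteins (7.63%) have the longest bars, and egg yolk the shortest (0.133%).

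The egg yolk precursors are made by the liver under estrogen. Both listed genes had counts in these juveniles, with 13016 for vtg3 and 6407 for vtg, together 0.133% of the total. The estrogen receptors esr1 and esr2a had 110 and 412 counts, and the androgen receptor ar had 118. The sex of the pooled fish was not given.

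Enzymes and carriers of hepatic metabolism held 9.89% (9.88 to 9.91) in 237 genes, of which 219 had a count and 177 at least 100. The largest share, 5.23%, was that of lipid and sterol metabolism with 78 genes. In this list scd, fabp10a and thrsp, a nuclear factor tied to the synthesis of fatty acids, took 67.98% of its counts. Behind thrsp, with 107833 counts, came enzymes of cholesterol synthesis, hmgcra, the rate-limiting reductase, with 38848, and msmo1, a sterol oxidase, with 32913. The desaturase fadsd6 had 24837 counts, lipc, the hepatic lipase, had 24640 and the fatty acid-binding protein fabp3 had 25025. The first step of bile acid synthesis, cyp7a1, had 3503.

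The carbohydrate list held 1.77% in 46 genes and was led by gapdh, of glycolysis, with 89125 counts. Other leading genes were ugp2, which makes UDP-glucose for glycogen, with 18109, gpia with 13937, fbp1b, of gluconeogenesis, with 13745, and eno3, the muscle form of enolase, with 13158. The last steps of glucose output were present at g6pc1a.2 with 12274 counts. Of the 2 genes for phosphoenolpyruvate carboxykinase, the mitochondrial form pck2 had 10010 counts and the cytosolic form pck1 had 18. Forms known from muscle or brain differed widely in this list, from 0 counts for eno2, 3 for pgam2 and 7 for pygma to 849 for pfkma and the 13158 of eno3.

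The amino acid and nitrogen list held 1.69% in 53 genes, and no gene dominated it, since hpda, the first, took 10.5%. The breakdown of phenylalanine and tyrosine had 24066 counts for pah, 11837 for tat, 26083 for hpda and 11779 for hgd, while the last steps had fewer, with 3023 for gstz1, held in the detoxification list, and 2383 for fah. The other leading genes were uox, the urate oxidase, with 19911 counts and agxt2, an aminotransferase of the mitochondrion, with 15931. The urea cycle was uneven. Arginase, arg1, had 8276 counts, while ass1 had 130, asl 84, otc 10 and cps1 a single count. Most teleosts excrete ammonia across the gill as their main nitrogen waste.

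Detoxification and redox genes held 1.20% in 60 genes. The first was gpx4a, a glutathione peroxidase that reduces lipid peroxides, with 22310 counts. It was followed by catalase, which breaks down hydrogen peroxide, with 19093. The aldehyde dehydrogenase family, taken in by symbol, gave aldh1l1 with 16419, aldh6a1 with 11587 and aldh4a1 with 10799 counts. Whether these dehydrogenases act in detoxification or in other metabolism was not examined. The peroxiredoxin prdx6 had 11536. Iron storage rested on 1 gene, as fth1a held 188007 counts and fth1b held 3.

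The exocrine pancreas list held 1.52% (1.519 to 1.531) in 8 genes, 3 of them among the first 100. Trypsinogen, prss1, had 87540 counts and stood at rank 21. The elastases ela2, ela2l and ela3l had 53242, 29338 and 8589 counts. Carboxypeptidases were present as cpb1 with 21620 and cpa5 with 15777, and the bile salt-activated lipase cel.2 had 6907. The phospholipase pla2g1b had only 44 counts. The genes ela2 and ela2l lie next to each other in the RefSeq order, and no source used here says how a read that fits both was assigned, so the split between them is uncertain. The symbols of chymotrypsinogens, pancreatic amylase, pancreatic lipase and colipase matched no locus and are not part of this share.

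Set against the plasma proteins, the exocrine list had 223057 counts and the plasma protein list 2572689, a ratio of 0.0867 (0.0863 to 0.0871). Against plasma proteins and metabolism together the ratio was 0.0555. Both are ratios of reads over genes with a symbol, and neither gives a share of cells.

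The transcription factors of acinar cells were low in counts, with 15 for ptf1a, 62 for rbpjl and 47 for bhlha15, while nr5a2 and gata4, which liver also uses, had 369 and 330. The acinar marker cuzd1.2 was at 0. Of 14 transcription factors of the liver, 13 had at least 100 counts, and the median of all 14 was 839. The highest were cebpb with 2478, xbp1 with 2240, cebpd with 1789, cebpa with 1449 and foxa2 with 1365. The regulators hnf4a and foxa3 had 825 and 853 counts, and foxa1 was at 0. Factors as a whole lay far below the secreted proteins in reads, as the 14 liver factors summed to 928 CPM.

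Among the regulators of lipid and sterol genes, 12 of 13 loci had at least 100 counts. The bile acid receptor nr1h4 had 1590 counts, srebf1, which drives fatty acid synthesis, had 1487 and srebf2, which drives cholesterol synthesis, had 1260. The 2 loci named ppara had 665 and 249, and pparg had 357. The xenobiotic receptor nr1i2 was the exception with 7 counts. In the growth and thyroid axis the liver-derived igf1 had 1409 counts, its plasma partner igfals 7654, and the growth hormone receptors ghra and ghrb 504 and 865. The deiodinase dio2, which activates thyroid hormone, had 3143 counts and dio1 had 481. The genes igfbp1a, igfbp2a and prlra were low, with 22, 2 and 12 counts.

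Cytosolic ribosomal proteins held 7.86% (7.84 to 7.87), the largest share of any single list. No single one of its 79 genes led it, with the first, rack1, at 3.72% of the list and 75 genes within the first 1000. The leading members after rack1 (42725 counts) were rps4x with 34916, rpl7a with 31677, rpl9 with 29560, rpl6 with 29538 and rpl3 with 29496. The 33 small subunit genes had a median of 13829 counts and the 46 large subunit genes one of 12728. The genes with the fewest counts were second copies or paralogs, such as rps27l with 438, rpl5a with 949 and rpl22l1 with 1148. Close copies could have shared reads in the counting.

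Translation factors held 1.62% in 57 genes, and ef-1a made up 49.6% of that. It was followed by eef1g with 20032 counts, tpt1 with 17483, naca with 11032, eef1b2 with 10666 and eif5a with 9572. Genes for folding and export in the endoplasmic reticulum, the entry to the secretory path, held 0.300% in 55 genes. Their first members were the disulfide isomerases pdia3 and p4hb with 7090 and 5035 counts, then ssr2 with 2371, canx with 2055, sec61b with 1985 and ppib with 1959. The list labelled cytosolic chaperones held 0.335%, led by hsp90ab1 with 19111 and hsp70 with 14233 counts. The chaperonin subunits followed, with 3971 for cct3, 2299 for cct4, 1710 for cct5 and 1403 for cct2. Whether every member of that list is cytosolic was not checked.

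The 13 protein genes of the mitochondrial genome held 2.44% (2.436 to 2.452). The counts were unequal, although the genes of each strand are transcribed together. The 3 cytochrome oxidase subunits COX1, COX3 and COX2 had 123089, 71777 and 55214 counts and took 70.0% of the mitochondrial total. CYTB had 35107 counts and ATP6 had 30084. The 7 NADH dehydrogenase genes together took 11.05%, from 11577 counts in ND1 to 1119 in ND3. ND6, which vertebrate mitochondrial genomes carry on the opposite strand to the others, had 1428 counts.

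The nuclear genes of the respiratory chain, which here include complex II and cytochrome c, and of ATP synthase held 0.739% in 79 genes. Nuclear genes were put to a complex by the stem of their symbol alone. This placed ndufa4a in complex I, and whether its protein belongs there was not checked. Grouped in this way, cytochrome oxidase showed the widest gap, with 1.71% of counts in 3 mitochondrial genes and 0.250% in 14 nuclear genes. In complex I the shares were closer, with 0.270% in 7 mitochondrial and 0.220% in 37 nuclear genes. In the ATP synthase they were 0.224% in 2 mitochondrial and 0.212% in 15 nuclear genes. The nuclear list had a median of 895 counts and ran from ndufs8b at 0 to its first members, with cox4i2 at 7366 counts, atp5fa1 at 6223, ndufa4a at 5867, cox6a2 at 5284, atp5pb at 4579 and atp5mc3a at 4439.

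**Figure D4:**
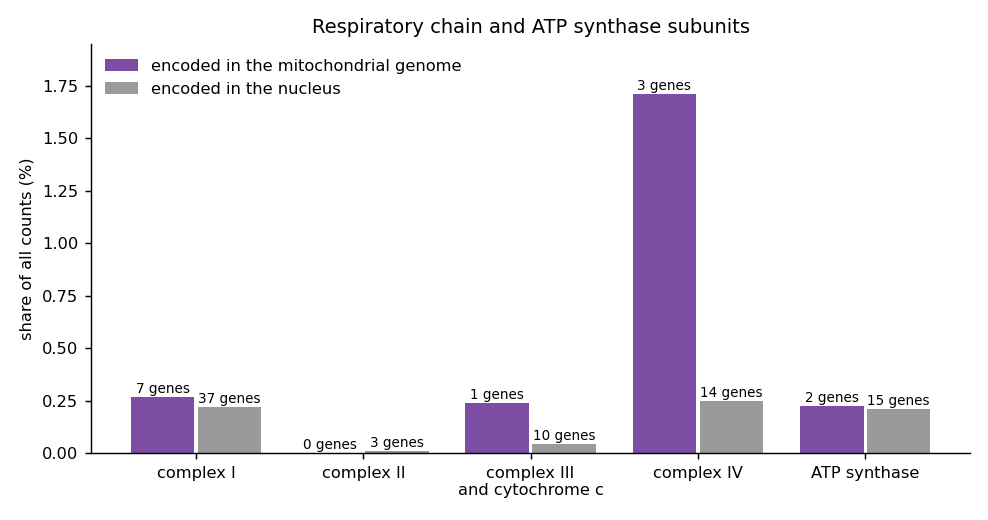
Share of all counts in percent for the subunits of each respiratory complex and of ATP synthase, with purple bars for genes of the mitochondrial genome and grey bars for nuclear genes, and the number of genes above each bar. Nuclear genes were put to a complex by symbol alone, with ndufa4a in complex I. The purple bar of complex IV, 1.71% from 3 genes, stands above all others.

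Lysosome and proteasome genes held 0.544% in 65 genes, led by the cathepsins ctsla with 15844 and ctsf with 15793 counts. After them came psap with 6547, lamp2 with 4295, lgmn with 2814 and tpp1 with 2626. The cytoskeleton list, labelled actin and keratin, held 0.465% in 18 genes and also took in tubulin and actin-binding proteins. Its first members were actb2 with 35893 counts, krt8 with 13043, krt18a.1 with 12842, cfl2 with 3942, tubb2b with 782 and pfn1 with 606. The 2 keratins that pair in simple epithelia thus had similar counts. Solute carriers formed the widest list and one of the thinnest, with 331 genes, a median of 26 counts and 0.622% of the total. The first were slc38a4, an amino acid transporter, with 8834 counts, the mitochondrial phosphate carrier slc25a3a with 8208 and the iron exporter slc40a1 with 6084. The bile acid exporter subunit slc51a had 4645, slc26a5 had 4516 and slc25a11 had 4254.

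Genes with a symbol in none of the lists held 19.8% of the counts, and 7 of them were among the first 100. The first was mb, the gene of the oxygen-binding protein myoglobin, with 58477 counts at rank 32. The skeletal muscle markers that matched a locus had far fewer counts. These were 202 for desma, also a gene of stellate cells, 62 for acta1b, 47 for ckma, 44 for mylpfa and 0 for ryr1b. After mb came ybx1, an RNA-binding protein, with 58008 counts, ptgdsl1 with 45697 and the rRNA gene l-rRNA with 37556. Behind these stood fas with 36106, sid4 with 32050 and msmbl with 29725. Which protein the symbol fas stands for was not examined, and its counts are not part of the lipid list. The uncoupling protein ucp1, of the inner mitochondrial membrane, had 21059 counts. These genes were chosen after their counts had been seen.

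The labels call the cells histiocytes, which are macrophages of tissue, so the library was checked against markers of 18 cell types. Hepatocyte markers led by far. Of 32 such markers 25 matched a locus, and these summed to 1178840 counts or 80591 CPM, with 555844 counts from hpx. Beside the genes described above they include hpxb with 20442 counts and cp, for ceruloplasmin, with 17820, and the second copies fbp1a and hpdb with 57 and 0. Macrophage markers summed to 1281 counts or 87.6 CPM over 9 matched of 18. Their values ran from 488 for c1qb, 200 for csf1ra and 171 for cd68 through 127 for irf8, 89 for marco, 64 for mrc1a, 60 for cybb and 47 and 35 for spi1b and spi1a to 0 for timd4. The levels of the unmatched macrophage markers, among them mpeg1, lyz and ptprc, are not known here. Both sums are of reads over unlike kinds of genes and give no share of cells. The counts went against a library of histiocytes alone, and it is called hepatopancreas here, after the tissue label. The invariant chain gene cd74a, of antigen presentation, had 8949 counts.

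Hormone cells of the islets left almost no reads. Insulin, by the loci ins and insb, was at 0, as were iapp, pyya, neurod1, pax6b and sst6.1. The other hormone loci had 2 counts for gcgb, 1 for sst5 and 5 for pyyb. By the one-sided limit given above, a count of 0 among 14627514 allows up to 0.205 CPM. The highest of this list were slc30a8, a zinc transporter, with 171 counts and pdx1, a factor also used in early pancreas, with 156. The remainder were nkx6.1 with 11, pcsk1 with 3, pcsk2 and isl1a with 2 each and scg5 with 1.

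Markers of supporting and blood cells had low shares. Endothelial markers summed to 173 CPM over 10 matched of 11, with 510 counts for kdr, 452 for kdrl, 410 for tie1, 282 for stab2, 275 for egfl7, 155 for fli1 and 147 for cdh5. The rest of that list, stab1, flt1, pecam1b, pecam1a and vwf, lay between 103 and 21 counts. Collagen-making cells were marked by col1a2 with 1058, col1a1b with 971 and col1a1a with 764 counts, with acta2 at 241, desma at 202 and dcn at 144. In the same list pdgfrb, pdgfra, hand2 and desmb had 82, 81, 25 and 13 counts and lum had 1.

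Erythrocyte markers were present, although no globin locus carried the symbols searched. The haem synthesis gene alas2 had 1408 counts, the anion exchanger slc4a1a 809, hemgn 396 and gata1a 85, with 2 for slc4a1b. Thrombocyte markers were itga2b with 252, gp9 with 54 and mpl with 37. Of 9 lymphocyte markers 6 matched a locus. All 6 were under 50 counts, from 41 for zap70, 36 for cd79a and 32 for lck to 13 for cd4-1, 11 for cd4-2.2, 7 for pax5 and 3 for cd8a. No locus matched cd3e, cd79b or ighm, so their levels are not known here. Outside this list, RefSeq gives 15 genes as C_region and 45 as V_segment, the segments of antigen receptors. They had 465 and 177 counts. Among bile duct markers, hnf1ba had 582 counts, epcam 270, anxa4 246 and cftr 9, while krt18a.1 is also a hepatocyte keratin. Of 5 adipocyte markers 3 matched a locus, with 910 counts for cidec, 517 for fabp4a, 22 for fabp4b, 5 for lepa and 0 for lepb. No locus matched plin1 or adipoq, and whether these reads came from adipocytes was not examined.

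Most markers of other organs that matched a locus had few counts. Matched were 7 of 14 enterocyte, 9 of 15 skeletal muscle, 2 of 4 kidney and 4 of 5 germ cell markers. The levels of the others are not known here. Among enterocyte genes, fabp2 had 23, slc15a1b 23, anpepa 15 and slc15a1a 1 count, and fabp6, alpi.1 and both mep1a loci were at 0. The exception in that list was apoa4b with 17110 counts, an apolipoprotein also counted above, while apoa4a had 83. In skeletal muscle, beside the genes given above, ckmb, mylz3, atp2a1, mylpfb, acta1a and atp2a1l had 27, 21, 13, 9, 7 and 3 counts. The desmin genes desma and desmb, given above for collagen-making cells, are also in the muscle list, and desma with 202 counts was its highest. The kidney transporter slc12a1 had 12 and slc12a3 had 0, and of gill ionocyte genes slc12a2 had 37 and foxi1 and slc9a3.1 had 0. Germ cell genes were at 1 count (dazl, zp3d.2, zp3c) or 0 (ddx4, piwil1, zp3f.1, zp3f.2). Neuronal genes were at 16 for snap25a, 3 for syt1a, 1 for stmn2a and 0 for elavl3, syt1b and stmn2b. No stomach marker matched a locus.

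**Figure D5:**
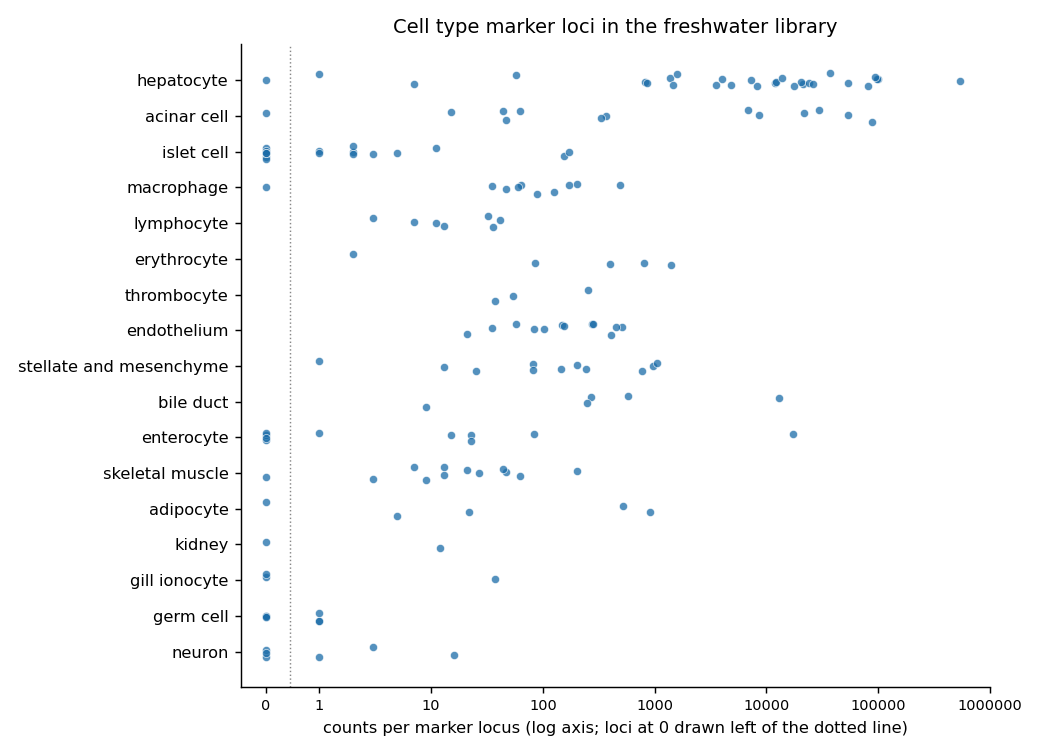
Counts of each matched marker locus, by cell type, on a log axis, with loci at 0 drawn left of the dotted line. Most hepatocyte loci lie above 1000 counts, the islet loci lie at 171 or below, and the lymphocyte, kidney, germ cell and neuron loci all lie under 50.

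By the gene classes of the deposited table, mRNA genes held 96.3% of the counts and 74.9% of them were detected. The miscRNA class held 2.71%, the ncRNA class 0.673%, the 1 rRNA gene 0.257% and the tRNA genes 0.0454%. Some of the genes in the smaller classes carry the symbols of proteins. The first miscRNA gene was fn1b, with 28.2% of its class, then selenop with 37751 counts and LOC100699101 with 28429. RefSeq's current annotation lists 313 of the 3123 miscRNA genes as protein coding, and these had 60.1% of the counts of the class. Its long non-coding RNAs had 27.7%. In the ncRNA class 168 genes, now protein coding, held 83.6%, among them LOC100690147 with 48976 counts, f7i with 11841 and LOC100710648 with 10400. The rRNA gene, l-rRNA, had 37556 counts, and among tRNAs tRNA-Ser had 5133, tRNA-Glu 949 and tRNA-Gln 190. Of the tRNA counts, 77.3% were in tRNA-Ser alone. Neither l-rRNA nor these tRNA names were in the RefSeq table used here. Whether they belong to the mitochondrial genome was not examined. The mitochondrial share given above is of protein genes only and would leave such RNAs out.

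The place of the genes with many counts in the gene order was then examined. Of the 200 genes with the most counts, 178 could be placed in the RefSeq gene order, and 33 of them (18.5%) had another of the 200 within 3 genes on either side. Among 13336 other placed genes with at least 10 counts, 467 (3.50%) had one of the 200 that near. No test was made of this difference. There were 10 pairs of direct neighbours, and in 7 of them neither gene had a symbol. In these pairs counts were at times close, as in LOC100708221 with 73007 and LOC100691584 with 72483, or in LOC100704059 with 86065 and LOC102080222 with 68188. In other pairs they were far apart, as in LOC100692186 with 118206 and LOC100700974 with 15078. The pairs with symbols on both sides were apoeb with apoc1, and ela2l with ela2. The desaturase fadsd6 stood beside LOC100700077, with 34923 counts, which stood beside LOC100700348, with 25553. Near-identical copies, where such pairs are, could have split their reads.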

How the data were processed

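The freshwater library was a pool of hepatopancreas RNA from 8 fish. The authors isolated poly(A) RNA, sequenced single-end reads on an Ion Proton, used MapSplice for mapping, with Orenil1.1 as the genome. The deposited values are raw counts per gene, with no normalization. HTSeq is named in the submitters' processing notes. Its settings, the strand and the handling of multiply matching reads are not given in the sources used here.

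Counts were ranked and divided by their total of 14627514. Symbols came from RefSeq's gene table of assembly O_niloticus_UMD_NMBU, which held 23652 of 27855 locus numbers and 1219 of 1750 symbols, 37 of them by synonym. Since the assemblies differ, it was used only for names, biotypes and gene order. Lists, markers and regulators were matched by symbol, and a gene entered 1 of the 20 lists only. The members and lists were chosen with earlier results of these data known, and some lists were trimmed after counts had been seen. Named genes were the 30 with the most counts, the 6 first of each list, the 3 first of each class other than mRNA and all matched markers. Other names were chosen after their counts were seen. A gene that this rule covers is not reported here.

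Intervals came from scipy 1.17.1 with Python 3.11.15, pandas 2.3.3 and numpy 2.4.6. They were tested on simulated counts that varied by counting error only. Figures were drawn with matplotlib 3.10.9. With 1 library no test was possible. The alternatives changed the genes counted in the total or in a list. No sequence was used.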

Additional observations from a re-analysis of the deposited data

How the results depend on the processing

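Shares were recomputed under other choices of genes, those with a symbol only and without the first member of a list having been chosen after seeing the data. Plasma proteins, hepatic metabolism, protein synthesis, mitochondrially encoded genes and exocrine pancreas held 17.1, 10.02, 9.84, 2.54 and 1.58% of the counts of mRNA genes. Without LOC100708634 they held 18.6, 10.5, 10.03, 2.58 and 1.61%, and over genes with at least 100 counts 18.0, 10.1, 9.71, 2.50 and 1.56%. Over genes with a symbol only they held 27.0, 15.2, 14.6, 3.75 and 2.34%. Without the first member of each (hpxa, scd, ef-1a, COX1 and prss1) they held 14.5, 8.43, 8.75, 1.62 and 0.932%, and metabolism then stood below protein synthesis. In the other settings the order was kept. Without the 13 mitochondrially encoded protein genes the other 4 held 18.0, 10.1, 9.72 and 1.56%. The rRNA and tRNA genes stayed in this total. The ratio of exocrine to plasma protein counts was 0.0665 without prss1 and hpxa. The first 10 genes held 23.7% of mRNA counts and 23.4% without the listed mitochondrial protein genes. With these 2 choices 50% of the counts lay in 79 and 85 genes. Without the first gene of each class, mRNA held 97.5%, miscRNA 2.09%, ncRNA 0.364% and tRNA 0.0111%. Genes detected numbered 14865 with at least 10 counts and 7021 with at least 100.

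Counts per kilobase were not run, as no coding lengths were used here, nor was matching without product names, since matching was by symbol throughout. No paired analysis was possible because a single library was described. With 1 pool the spread between fish, tanks and preparations is unknown, and the intervals cover counting error only. The 3 counts that a 0 allows limit statements on rare cell types.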
